A study of Mus musculus with 2 samples.

Results

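The Ifi200 genes are 6 members of a mouse gene cluster, Ifi202b, Ifi203, Ifi204, Mnda, Pyhin1 and Aim2, out of 27933 gene symbols counted. They were taken by name from the single-cell count tables of 2 thymus libraries, and the group was picked because Ifi202b was nearly absent from 1 of them. The difference of Ifi202b between the libraries is therefore a description of what selected the genes, and no test is attached to it or to any other value. The other 6 genes of the cluster that the tables name (Ifi205, Mndal, Pydc3, Pydc4, BC094916 and AI607873) are given beside the members.

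The proteins of this family carry a DNA-binding HIN domain, and most pair it with a pyrin domain that recruits partner proteins. Aim2 senses double-stranded DNA in the cytosol and assembles an inflammasome with the adaptor Pycard and the protease Casp1. Ifi202b encodes p202, which has HIN domains and no pyrin domain, binds DNA and restrains Aim2. Ifi204 encodes p204, a nuclear and cytosolic DNA-binding protein related to human IFI16. Many of these genes respond to interferons, and the level of Ifi202b is known to differ between inbred mouse strains, where the gene lies in a lupus susceptibility interval.

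One library came from thymocytes of wild type mice and the other from thymocytes in which both copies of NMe carry mutated GATA sites 1 and 2. NMe is a distant Myc enhancer bound by NOTCH1, and GATA motifs are read by factors such as GATA3. The second library is called mutant. Strain, age, sex and the number of animals behind each library are not given in the sources used here, so a difference between the libraries cannot be told apart from a difference between the mice or their strains. Each group is 1 library, with no replicate, and every interval is a 95% interval for counting error only. Levels are unique molecular identifiers (UMIs, molecules counted) summed over cells per 1000000 UMIs of the same cells (CPM).

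The wild type table held 1346 barcodes and 6638880 UMIs with a median of 3323.5 per barcode. The mutant library held 1737 barcodes and 6364506 UMIs with a median of 2596. After filtering, 1338 and 1726 cells were kept. Stages were set by UMIs of marker genes, none of them an Ifi200 gene. Early cells (DN-like, with Il2ra, Hes1 or Notch3 and almost no Cd4 or Cd8) numbered 50 in wild type and 174 in mutant. Cycling cells were split into cycling early (15 and 69) and cycling later (576 and 264). Resting CD4+CD8+ cells (DP-like) numbered 331 and 529, post-selection-like cells with Itm2a, Cd69 or Cd5 112 and 157, and mature single-positive-like cells with Ccr7, Klf2 or S1pr1 176 and 356. Cells with B cell, antigen-presenting, myeloid or innate-like genes (36 and 90) are called other lineage. The gates did not hold the same mix in both libraries: inside the early gate the summed early markers stood at 1902 CPM for wild type against 3788 CPM for mutant, and inside the cycling later gate Cd4, Cd8a and Cd8b1 at 1849 against 1154 CPM. The part of this mix in the stage differences below was not tested, except where cycling cells are split by coreceptor UMIs. Ratios over all cells also hold unlike weights of the stages. Cycling later cells gave 63.3% of wild type and 28.9% of mutant UMIs, and mature cells 9.05% and 19.8%. The part of these weights in the ratios over all cells was not tested.

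Of the 12 genes, 11 could be placed on mm10 chromosome 1, between positions 173350879 and 174031810, a stretch of 680.932 kb. Ifi202b lies at chr1:173962568-173982744 on the minus strand, Ifi203 at chr1:173920407-173942672, Mnda at chr1:173896345-173913046 and Ifi204 at chr1:173747293-173766943, all on the minus strand. Pyhin1 lies at chr1:173630917-173647928 and Aim2 at chr1:173350879-173466040, both on the plus strand. The GENCODE annotation lists Mnda as Ifi211, Pyhin1 as Ifi209, Pydc3 as Ifi208, Pydc4 as Ifi213 and AI607873 as Ifi207. BC094916 had no match and is given by name only. These genes are close copies, so the last 500 bases of their transcripts, where this assay reads, were searched for stretches of 60 bases that also occur in another gene. None was found for Ifi202b (441 stretches), Ifi204 (882) or Aim2 (1690), and 5.51% for Ifi203. For Mnda 72.3% also occurred in Ifi205 or Mndal, and for Pyhin1 44.8% occurred in Ifi214. Among the other cluster genes the share was 37.1% for Ifi205, 20.3% for Mndal, 17.6% for Pydc3 and 15.9% for Pydc4. The counts of Mnda, Pyhin1 and these 4 genes may thus miss reads shared with copies and are less certain. BC094916, without an annotated match, was not searched, so what its counts share with copies is not known.

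The stretch upstream of each start site was searched on both strands for the interferon-stimulated response element (ISRE, here GAAA, any 2 bases, then GAAA) and the gamma-activated site (GAS, written TTCNNNGAA), since the members are compared below with other interferon-inducible genes. RefSeq windows on GRCm38.p6, 250 bases before to 50 after a start, were given for 10 of the 12 genes. An ISRE match was present in 7 of these 10 genes and a GAS match in 1. These genes had 12 windows, and a gene was counted if any of its windows held a match. The shares that follow are per window, so the units are not the same. Of 53 windows of the other interferon-inducible genes 23 held an ISRE and 11 a GAS match. Of all 32851 windows 3.44% held the ISRE letters and 8.30% the GAS letters. Ifi202b, Pyhin1 and Aim2 had no ISRE match in this window, and Ifi202b held the GAS match, 148 bases before its start. The 250 bases before the start are shown for Ifi202b (chr1:173982845-173983094, minus strand) and for Mnda (chr1:173913047-173913296, minus strand), the member whose stage levels were most like those of Ifi202b among the cluster genes compared (Pearson r 0.98, given with its limits at the end). Capitals mark the matches.
Ifi202b: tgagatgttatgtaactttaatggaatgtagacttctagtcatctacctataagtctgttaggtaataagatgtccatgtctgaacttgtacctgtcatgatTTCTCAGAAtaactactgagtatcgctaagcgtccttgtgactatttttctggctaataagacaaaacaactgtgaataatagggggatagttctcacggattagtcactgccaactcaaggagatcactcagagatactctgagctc
Mnda: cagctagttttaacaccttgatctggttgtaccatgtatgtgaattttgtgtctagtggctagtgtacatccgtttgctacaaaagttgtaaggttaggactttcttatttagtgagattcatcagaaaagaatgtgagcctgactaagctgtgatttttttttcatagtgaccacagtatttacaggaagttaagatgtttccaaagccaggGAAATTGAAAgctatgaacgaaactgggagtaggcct
The ISRE match of Mnda and the 40 bases around the matches of Ifi203 (chr1:173942498-173942537), Mndal (chr1:173880194-173880233), Ifi205 (chr1:174031860-174031899), Pydc3 (chr1:173673597-173673636, plus strand) and AI607873 (chr1:173741821-173741860) are shown because they share sequence beyond the motif, which bears on how alike these copies are.
Ifi203: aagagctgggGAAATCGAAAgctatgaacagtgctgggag
Mndal: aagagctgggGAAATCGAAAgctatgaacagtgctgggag
Ifi205: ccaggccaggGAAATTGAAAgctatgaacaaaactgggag
Pydc3: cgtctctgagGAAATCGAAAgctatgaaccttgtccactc
AI607873: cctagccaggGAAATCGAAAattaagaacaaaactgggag
The stretch of Ifi203 and that of Mndal are identical over these 40 bases, and in Ifi203, Mndal, Ifi205, Pydc3 and Mnda the letters gctatgaac follow the match. The matches shown lay between 35 and 134 bases before the start, and Ifi205 held another 23 bases after its start. A match describes letters in a window and says nothing of whether a factor binds there.

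Ifi202b RNA was counted in the mutant library at each stage from early to resting DP cells and was all but missing from wild type. Over all kept cells wild type held 3 Ifi202b UMIs, or 0.454 CPM (interval 0.0937 to 1.33), and mutant held 696, or 110.5 CPM (102.4 to 119.02). The log2 ratio of mutant over wild type was 7.93 (6.37 to 10.2), and all ratios below are given in this direction. The 3 wild type UMIs lay in 3 different cells, 2 cycling later and 1 of other lineage, and none of these barcodes was in the mutant table.

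Within the mutant library Ifi202b followed the stages. Cycling early cells had 365 CPM (315 to 421, 190 UMIs) and early cells 307 CPM (263 to 356, 174 UMIs), and these intervals overlap. Cycling later cells had 131 CPM (115 to 149, 239 UMIs) and resting DP cells 28.3 CPM (19.2 to 40.1, 31 UMIs), so each of these stages was below the one before it. Mature cells had 8.03 CPM (3.85 to 14.8) from 10 UMIs, and 0 of 157 post-selection cells held a UMI, which allows a share of up to 1.91%. Of the mutant Ifi202b UMIs 25% lay in early, 27.3% in cycling early and 34.3% in cycling later cells, while these stages held 9.003%, 8.26% and 28.9% of all mutant UMIs. The early and cycling early cells thus gave a larger share of Ifi202b than of RNA in all.

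No wild type stage except cycling later held an Ifi202b UMI, and cycling later held 2, at 0.479 CPM (0.0580 to 1.73). Against the floor of 3 UMIs for a count of 0, early mutant cells were at least 22.3-fold higher, cycling early cells at least 18.3-fold and resting DP cells at least 7.45-fold. In cycling later cells the log2 ratio was 8.10 (6.23 to 11.2). With each cell thinned to 1400 UMIs, 32.2% of early, 39.1% of cycling early, 14.4% of cycling later and 2.65% of resting DP mutant cells held an Ifi202b UMI. In wild type 1 of 1338 thinned cells held one. Without thinning 278 of the 1726 mutant cells held at least 1, and the cell with most held 16, or 2.30% of the gene's total, so the level did not rest on a single cell. That cell was of the other lineage group, where it gave 16 of 48 Ifi202b UMIs.

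**Figure D1:**
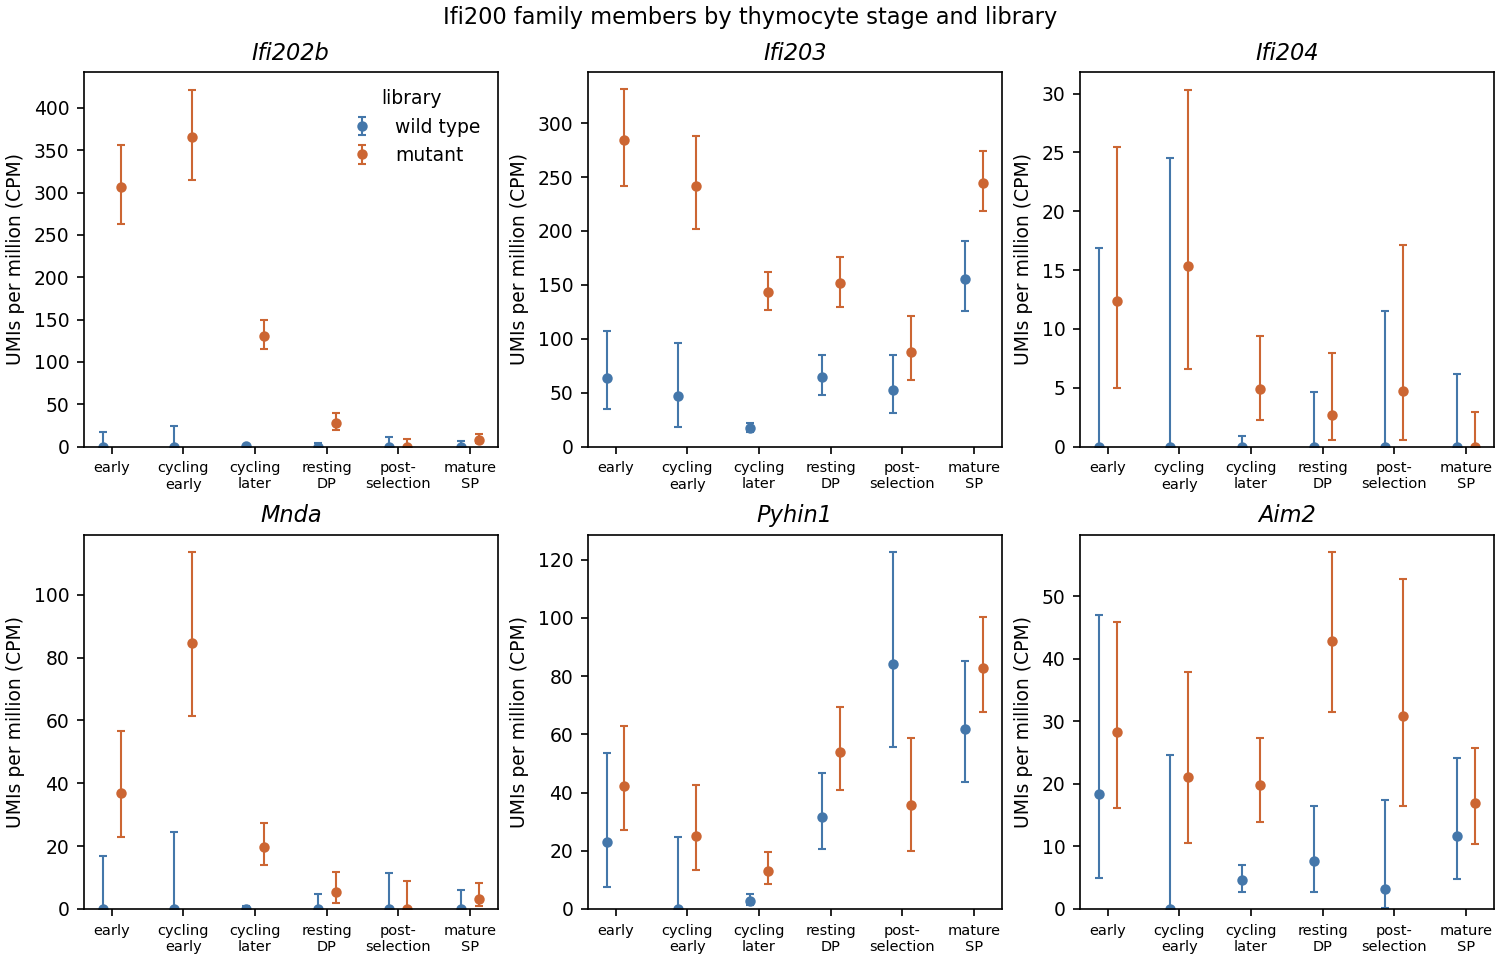
UMIs per 1000000 (vertical axes, starting at 0, scale differs by gene) of the 6 members in 6 thymocyte stages (horizontal axes), with points for the wild type and mutant library and bars for exact Poisson 95% intervals. Ifi202b and Mnda are high in early and cycling early mutant cells, while Ifi203 is also high in mature cells of both libraries, and cycling early wild type values rest on 15 cells.

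Mnda and Ifi204 were also counted mainly in the mutant library, from fewer UMIs than Ifi202b. Mnda, whose product pairs a pyrin with a HIN domain, had 4 wild type and 128 mutant UMIs (log2 ratio 5.07, 3.68 to 6.97). All 4 wild type UMIs were in other lineage cells, and the 1260 staged wild type thymocytes held none against 111 UMIs in mutant, at least 40.8-fold higher. In mutant, Mnda stood at 37.03 CPM (22.9 to 56.6) in early, 84.6 CPM (61.4 to 113.5) in cycling early, 19.8 CPM (13.8 to 27.4) in cycling later and 5.47 CPM (2.01 to 11.9) in resting DP cells. The Mnda intervals of early and cycling early cells were apart, with cycling early cells higher. Ifi204 had 2 wild type UMIs, both in 1 cell of other lineage, and 36 mutant UMIs (log2 ratio 4.24, 2.28 to 7.34). Its mutant UMIs were 7 in early, 8 in cycling early, 9 in cycling later, 3 in resting DP and 2 in post-selection cells, and none in mature cells. In mutant cycling cells with 0, 1 or 2, and 3 or more coreceptor UMIs (the split described below) Ifi204 was at 9.87, 0 and 9.08 CPM, with no steady fall. Over staged thymocytes Ifi204 was at least 10.7-fold higher in mutant. Ifi205, a close copy of Mnda, followed with 2 and 18 UMIs.

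Ifi203 was counted in both libraries and at every stage. Over all kept cells wild type had 42.1 CPM (37.3 to 47.4, 278 UMIs) and mutant 188.9 CPM (178.3 to 199.97, 1190 UMIs). The log2 ratio was 2.17 (1.98 to 2.36). In wild type its level was highest in mature cells, at 156 CPM (126 to 191), and lowest in cycling later cells, at 17.7 CPM (13.9 to 22.2). Early (64.2 CPM), resting DP (64.5 CPM), post-selection (53.02 CPM) and cycling early cells (46.6 CPM) lay between these and had overlapping intervals. In mutant early cells were at 284 CPM (242 to 331), mature cells at 245 CPM (218 to 274) and cycling early cells at 242 CPM (202 to 288), with overlapping intervals, above resting DP cells at 151 CPM (129 to 176) and cycling later cells at 143 CPM (127 to 162). Post-selection cells were lowest in mutant, at 87.8 CPM (61.8 to 121). The log2 ratio was 2.15 (1.36 to 3.05) in early, 3.02 (2.64 to 3.41) in cycling later and 1.23 (0.77 to 1.71) in resting DP cells. It was 0.73 (-0.14 to 1.65) in post-selection and 0.65 (0.31 to 1.01) in mature cells, so the libraries were closest in the last stages. In mature cells with Cd8 and without Cd4 UMIs wild type Ifi203 stood at 151 CPM and mutant Ifi203 at 277 CPM, and in those with Cd4 and without Cd8 UMIs at 222 CPM, from 20 cells, and 188 CPM.

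Pyhin1 and Aim2 were the members with the smallest log2 ratios over all cells, though the Aim2 interval overlaps that of Ifi203. Over the alternative settings Ifi203 fell as low as 1.70 and Aim2 no lower than 1.86, so the order of these 2 is not settled. Pyhin1, a nuclear protein with a pyrin and a HIN domain, had 18.9 CPM (15.8 to 22.6, 125 UMIs) in the wild type library. The mutant library had 43.02 CPM (38.1 to 48.5, 271 UMIs), and the log2 ratio was 1.18 (0.87 to 1.502). Its level was low in cycling later cells, at 2.87 CPM in wild type and 13.2 CPM in mutant, and high in mature cells, at 61.9 and 82.7 CPM. The 15 wild type cycling early cells held no Pyhin1 UMI. In post-selection cells the direction was the opposite: wild type had 84.2 CPM (55.5 to 122.5, 27 UMIs) and mutant 35.6 CPM (19.9 to 58.7, 15 UMIs), a log2 ratio of -1.24 (-2.26 to -0.28). Pyhin1 was thus the only member lower in mutant at a stage by more than counting error. Aim2 had 6.36 CPM (4.59 to 8.60, 42 UMIs) in the wild type library. In the mutant library it had 24.8 CPM (21.03 to 28.97, 156 UMIs), and the log2 ratio was 1.96 (1.46 to 2.49). Its mutant level was highest in resting DP cells, at 42.8 CPM (31.5 to 56.98) against 7.59 CPM (2.78 to 16.5) in wild type, a log2 ratio of 2.50 (1.27 to 4.01). The mutant interval in resting DP cells overlaps those of early (28.2 CPM) and post-selection cells (30.9 CPM). In mature cells Aim2 was at 11.7 and 16.9 CPM, with a ratio of 0.53 whose interval ran from -0.76 to 2.00.

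Among the other genes of the cluster, Mndal resembled Ifi203 in wild type and differed less between the libraries. Mndal had 64.2 CPM (424 wild type UMIs) and 135.7 CPM (855 mutant UMIs), with a log2 ratio of 1.08 (0.91 to 1.25). The ratio was 1.54 (1.23 to 1.85) in cycling later cells, 0.04 (-0.38 to 0.47) in resting DP cells and 0.03 (-0.31 to 0.38) in mature cells. BC094916 had 26 and 120 UMIs with a ratio of 2.27 (1.65 to 2.95), and Pydc3 18 and 64 UMIs with a ratio of 1.90 (1.13 to 2.74). Pydc4 had 49 and 64 UMIs with a ratio of 0.45 (-0.11 to 1.02). These last genes were highest in mature cells in both libraries, where BC094916 had 18.4 and 48.97 CPM, Pydc3 16.7 and 24.1 CPM and Pydc4 46.8 and 37.7 CPM. AI607873 had 0 and 7 UMIs.

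Counted over genes with at least 20 UMIs in both libraries together, 6.19% of 10719 genes were at least 2-fold higher in mutant over all cells, and all 6 members were, as were 10 of the 11 cluster genes with that many UMIs. This contrast chose the group, so the count is only a description. Pyhin1 was under 2-fold with cells thinned to 1400 UMIs (0.67) or as a mean over cells (0.80). In early cells 13.4% of genes were past 2-fold, and of the 5 members with 20 UMIs Ifi202b, Ifi203 and Mnda were. In cycling later cells 4.18% of genes were, and so were all 5 members with 20 UMIs, of which Pyhin1 had 0.39 after thinning. In resting DP cells 5.26% were, and 3 of the 4 members with 20 UMIs (Ifi202b, Ifi203 and Aim2), of which Ifi203 had 0.996 after thinning, just under 2-fold. In post-selection cells 4.66% were higher and 1.96% lower. There neither of the 2 members with 20 UMIs was higher, and Pyhin1 was the one lower. In mature cells 3.79% were, and none of the 3 members with 20 UMIs, while BC094916 of the cluster was. A member with few wild type UMIs could reach 20 only through the mutant library.

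Cycling cells were ordered further by their Cd4, Cd8a and Cd8b1 UMIs after thinning, the coreceptors that thymocytes gain on the way to the DP stage. In mutant, Ifi202b was at 251 CPM (225 to 280) in cycling cells with 0 of these UMIs, at 127 CPM (99.6 to 159) with 1 or 2 and at 54.5 CPM (34.9 to 81.03) with 3 or more. Mnda went from 50.1 CPM (38.7 to 63.7) to 15.4 CPM (7.06 to 29.3) and 11.3 CPM (3.68 to 26.5). Ifi203 went from 191 CPM (168 to 216) to 137 CPM (109 to 171) and 125 CPM (94.02 to 162). For Ifi202b the intervals of all 3 groups were apart. For Mnda only the first step had intervals apart, and for Ifi203 neighbouring groups overlapped at each step. In wild type cycling cells Ifi203 had 25.4, 21.3 and 12.2 CPM over the same steps, and Ifi202b had 0, 2 and 0 UMIs from 102, 180 and 309 cells.

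**Figure D2:**
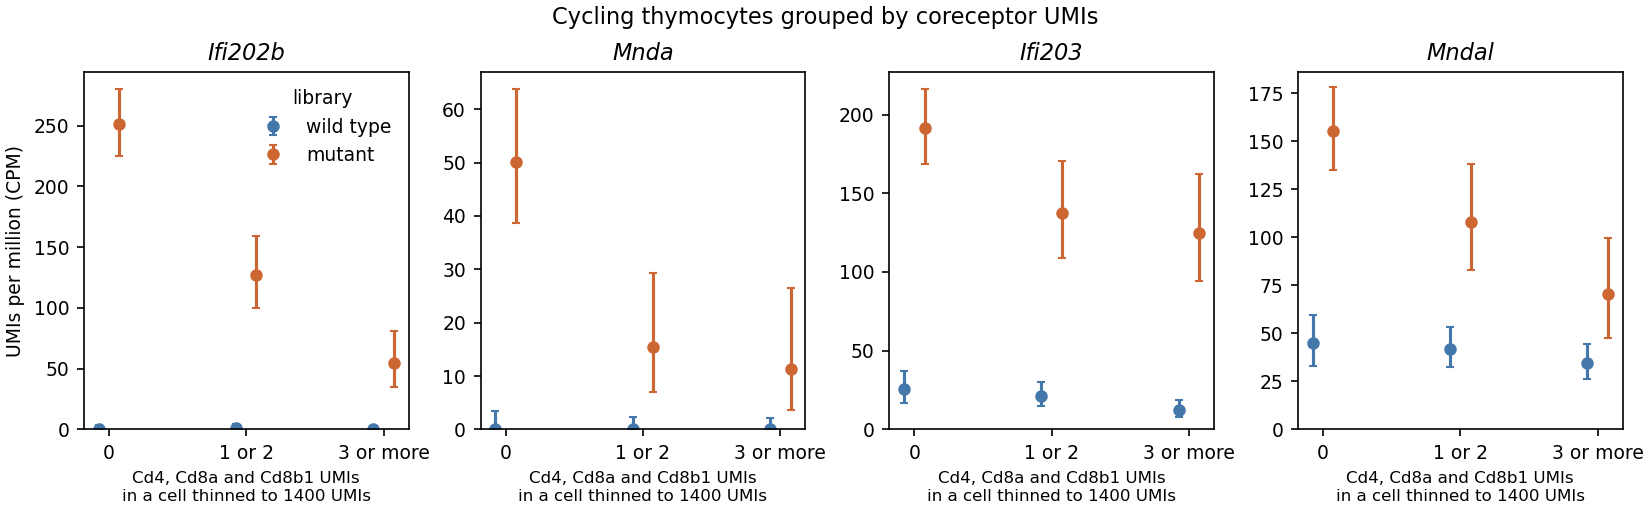
UMIs per 1000000 (vertical axes, starting at 0, scale differs by gene) of Ifi202b, Mnda, Ifi203 and Mndal in cycling thymocytes grouped by their summed Cd4, Cd8a and Cd8b1 UMIs (horizontal axes) in each library, with exact Poisson 95% intervals. Mutant Ifi202b steps from 251 to 127 and 54.5 CPM, and the mutant points of all 4 genes are above the wild type points in each group.

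Outside the thymocyte stages the members were also counted. Mutant cells with at least 3 UMIs of myeloid genes such as Lyz2 and C1qa, 17 cells, had Ifi202b at 284 CPM (197 to 397), Ifi203 at 359 CPM (260 to 484) and Mnda at 83.5 CPM (40.1 to 154). The 10 wild type cells of that gate held 0 Ifi202b, 4 Ifi203 and 3 Mnda UMIs. Mutant cells of the B and antigen-presenting gate, 59 cells, had Ifi202b at 136 CPM (93.7 to 191). Some cells met both gates, among them the cell with most Ifi202b UMIs named above. That cell adds to both Ifi202b values, which rest on 34 UMIs in the myeloid and 33 in the B and antigen-presenting gate. The intervals do not allow for this. Inside the early, cycling later and resting DP stages the summed myeloid markers were between 3.30 and 35.3 CPM, with 18.3 CPM in wild type early cells (6 of 8 markers at 0) and 35.3 CPM in mutant early cells (5 of 8 at 0). The B and antigen-presenting markers were at 45.8 and 68.8 CPM in early cells. Their part in the early values was not tested. Over all cells with the other lineage cells left out, the Ifi202b log2 ratio was 8.46.

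Over all cells, genes that interferon induces outside the cluster were also higher in the mutant library, by less. These ratios hold the unlike stage weights given above, and values by stage follow below. Of 57 measured genes of a list of 58, 35 reached 20 CPM in 1 library, and 33 of these were higher and 2 lower in mutant. Their median log2 ratio with 5 CPM added was 0.80, beside 0.08 for all 5639 genes at that level and 2.04 for the 5 members at that level, a value that describes the choice of members. Of the 56 with at least 20 UMIs, 25 were at least 2-fold higher, beside 6.19% of all genes, and Epsti1 alone was as much lower, beside 1.78% of all genes. The highest log2 ratios were those of Ifi44 (2.09, interval 1.23 to 3.05), Iigp1 (2.07, 1.48 to 2.70), Usp18 (2.01, 1.52 to 2.52), Oas2 (1.80, 0.44 to 3.41), Gbp3 (1.78, 1.13 to 2.47) and Oasl1 (1.53, 0.54 to 2.62). Iigp1 and Gbp3 encode GTPases that act against intracellular pathogens, and Usp18 removes ISG15 from proteins and damps interferon signalling. Oas2 makes an antiviral messenger when it binds double-stranded RNA. The lowest were Epsti1 (-1.16, -1.35 to -0.96), Pnpt1 (-0.20), Ly6e (-0.06) and Herc6 (0.14).

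Epsti1 stood apart from the list. Its difference was largest in resting DP cells, where wild type had 252 CPM from 199 UMIs and mutant 14.6 CPM from 16 UMIs, a log2 ratio of -4.11 (-4.94 to -3.37). In the same resting DP cells Ifi203 was higher in mutant by 1.23.

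**Figure D3:**
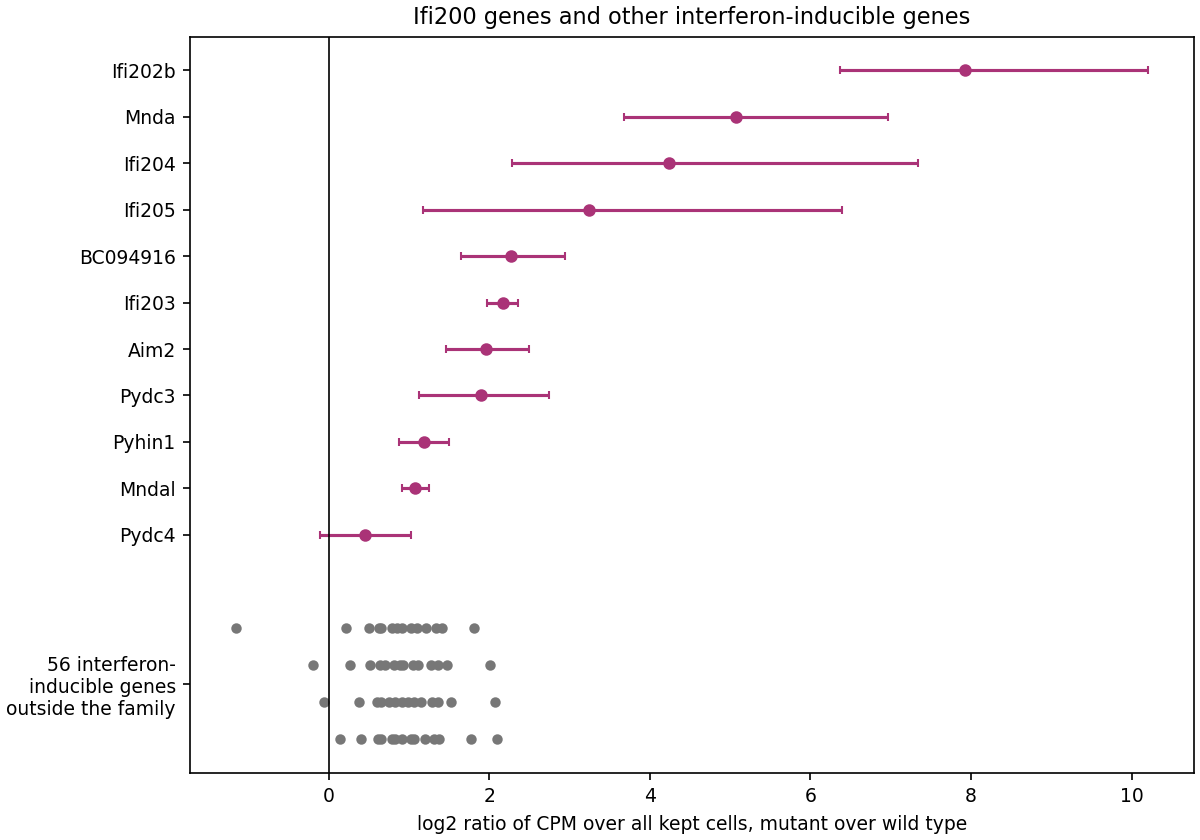
Log2 ratios of mutant over wild type CPM over all kept cells (horizontal axis) for the 11 Ifi200 cluster genes with at least 20 UMIs, with 95% counting intervals, and below them 56 other interferon-inducible genes as single points, spread vertically in 4 rows only to be visible. Ifi202b at 7.93, Mnda at 5.07, Ifi204 at 4.24 and Ifi205 at 3.24 lie above the highest of the other interferon-inducible genes, Ifi44 at 2.09, and BC094916 at 2.27 and Ifi203 at 2.17 lie near it.

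The list outside the cluster and the members were also set side by side in each stage. The median log2 ratio of the list was 0.32 in early cells, 0.81 in cycling later, 0.32 in resting DP, 0.42 in post-selection and 0.11 in mature cells, beside 0.20, 0.18, 0.13, 0.08 and 0.05 for all genes at 20 CPM. The members at 20 CPM had medians of 2.06, 3.67, 1.55, 0.68 and 0.51, over 5, 2, 4, 3 and 2 genes. In early cells 5 of 31 listed genes with 20 UMIs were at least 2-fold higher, near the 13.4% of all genes. In cycling later cells 19 of 40 were, beside 4.18% of all genes, in resting DP cells 5 of 39 beside 5.26%, in post-selection cells 5 of 24 beside 4.66%, and in mature cells 2 of 48 beside 3.79%. Of these 5 stages the list was most apart between libraries in cycling later cells and closest in mature cells. Its medians rest on 39, 21, 31, 31 and 42 genes, not the same set at each stage, which limits this order. The members' medians describe genes that mostly passed 20 CPM through the mutant library. They rest on different genes at each stage, so the stages are not ranked by them. In cycling early cells, with 15 wild type cells, the list median was 1.04.

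The inducers themselves were scarcely counted. Of 10 interferon genes, 9 had no UMI in either library and Ifng had 1 in mutant. All 5 receptor genes were measured and over all cells none was past 2-fold. In early cells 2 of the 4 receptor genes at 20 CPM were at least 2-fold higher, beside 11.5% of all genes at that level. In cycling early cells, with 15 wild type cells, 2 of 4 were, beside 18.1%. In cycling later cells 1 of 3 was, beside 1.82%, and in post-selection cells 1 of 5, beside 5.39%. At least 2-fold lower were 1 in cycling early and 1 in post-selection cells. The share of all genes as much lower at 20 CPM was not counted. Over all cells Ifngr1 (0.49, 0.41 to 0.58), Ifnar1 (0.39, 0.14 to 0.64) and Ifngr2 (0.36, 0.06 to 0.67) had the highest ratios and Ifnar2 (-0.12, -0.34 to 0.10) the lowest. Among the signalling genes, the kinase gene Tyk2 (1.10, 0.35 to 1.89) and Irf9 (1.02, 0.74 to 1.32), which act between the receptor and ISRE sequences, were among the highest. Socs1, a feedback inhibitor, was lower (-0.34, -0.49 to -0.18), and Jak1 (0.53) and Jak2 (0.55) were next lowest. The signalling genes at 20 CPM had a median of 0.85 over all cells, and this did not hold in each stage. It was 0.51 in early, 0.74 in cycling later, -0.28 in resting DP, 0.42 in post-selection and 0.13 in mature cells.

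The partners of Aim2 in the inflammasome differed among themselves. Pycard, the adaptor, was at 356 CPM in the wild type and 376 CPM in the mutant library, with a log2 ratio of 0.08 (-0.004 to 0.16). Casp1 had 9 and 21 UMIs with a ratio of 1.29 (0.10 to 2.60), and Gsdmd, the pore-forming substrate, 88 and 152 UMIs with 0.86 (0.47 to 1.25). Casp4 had 3 and 30 UMIs (3.39, 1.71 to 5.75), Il18 1 and 20 UMIs (4.39, 1.75 to 9.76), Casp8 a ratio of 0.51 (0.29 to 0.74), and Il1b had no UMI in either library. Of 15 genes of nucleic acid sensing, the RNA sensors Ifih1 (1.24) and Tlr7 (1.22) and the kinase gene Ikbke (0.98) had the highest ratios. Mb21d1, which encodes the DNA sensor cGAS, had the lowest (-0.98, -1.98 to -0.05, from 31 and 15 UMIs), then Mavs (0.04) and Irf3 (0.16). All these ratios are over all cells, with those of other lineage (36 in wild type and 90 in mutant) among them. The part of such cells in the Casp4 and Il18 counts was not tested. The median of the sensing genes at 20 CPM was 0.57 over all cells. By stage it was 0.25 in early, 0.40 in cycling later, 0.12 in resting DP, -0.07 in post-selection and 0.01 in mature cells.

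Inside 1 library, cells can be compared by how many interferon-inducible UMIs they hold. With staged cells thinned to 1400 UMIs, mutant cells with 3 or more UMIs of the list (1254 cells) had Ifi203 at 203 CPM (182 to 225) and those with 0 to 2 (295 cells) at 104 CPM (75.3 to 140), a log2 ratio of 0.96 (0.50 to 1.45). In wild type the values were 65.2 CPM (51.5 to 81.3, 855 cells) and 31.7 CPM (18.8 to 50.2, 405 cells), a ratio of 1.04 (0.28 to 1.86). Mndal had ratios of 0.91 (0.37 to 1.501) in mutant and 1.06 (0.47 to 1.70) in wild type. Over all stages together Ifi203 and Mndal were thus higher in cells with more of these UMIs in both libraries. Mutant Ifi202b was at 83.2 CPM (70.2 to 97.8) and 70.2 CPM (47.03 to 101), a ratio of 0.24 (-0.34 to 0.87), and Mnda had -0.42 (-1.81 to 1.19). The sign for Ifi202b changed with another random thinning, to -0.49 (-0.99 to 0.03), and with 5 genes left out of the list, to -0.38 (-0.84 to 0.07). Stages differ in both quantities. Within stages the wild type Ifi203 ratio was 0.34 (-3.00 to 5.96) in early, 0.15 (-1.58 to 2.08) in cycling later, 1.30 (-0.22 to 3.27) in resting DP, 1.43 (-1.19 to 4.82) in post-selection and -0.55 (-1.83 to 1.00) in mature cells, so no wild type stage showed it beyond counting error. In mutant it was 1.02 (-0.10 to 2.39) in early, 0.19 (-0.98 to 1.59) in cycling later, 0.97 (0.13 to 1.94) in resting DP, 0.59 (-0.86 to 2.24) in post-selection and 1.61 (0.02 to 3.91) in mature cells. For Ifi202b it was 0.32 (-0.66 to 1.45) in early and -0.43 (-1.41 to 0.68) in cycling later cells.

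Mutant early cells were also split by Ifi202b itself. The 56 thinned early cells with an Ifi202b UMI had Mnda at 89.3 CPM (35.9 to 184, 7 UMIs) and the 118 without at 12.1 CPM (1.47 to 43.7, 2 UMIs). Ifi203 was at 395 CPM (269 to 561) and 266 CPM (194 to 358), and the summed interferon-inducible list at 3635 CPM (3225 to 4083) and 4080 CPM (3778 to 4400). The summed list had overlapping intervals in early cells. It was at 3519 CPM (2946 to 4170) with and 2704 CPM (2300.1 to 3159) without an Ifi202b UMI in cycling early cells, at 2970 CPM (2525 to 3471) and 3436 CPM (3234 to 3646) in cycling later cells, and at 4949 CPM (4013 to 6037, 14 cells) and 3570.04 CPM (3433 to 3711, 515 cells) in resting DP cells. The direction thus differed between stages, and the intervals were apart only in resting DP cells. In cycling later cells Ifi203 was at 226 CPM (117 to 394) with and 114 CPM (79.7 to 158) without an Ifi202b UMI, and Mnda had 0 UMIs in 38 cells with and 6 in 226 cells without.

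**Figure D4:**
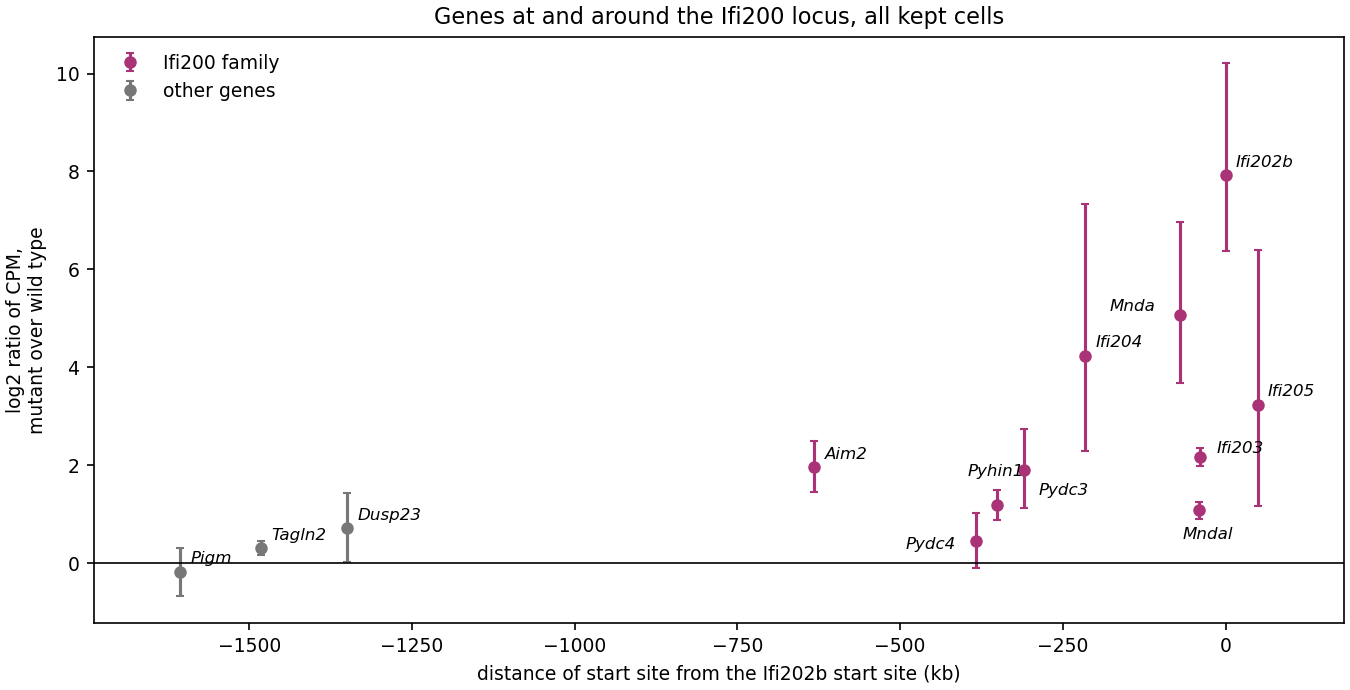
Log2 ratio of mutant over wild type CPM over all kept cells (vertical axis, 95% counting intervals) against the distance of each gene's start site from that of Ifi202b (horizontal axis, kb), for cluster genes and other genes within 1 Mb of the cluster with at least 20 UMIs. The neighbours Pigm, Tagln2 and Dusp23, all far out on the Aim2 side, lie between -0.18 and 0.72, and every cluster gene drawn except Pydc4 lies above them. No neighbour on the Ifi205 side could be drawn.

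Within 1 Mb on either side of the cluster 39 other annotated genes were columns of the tables, and 3 had at least 20 UMIs. Pigm had a log2 ratio of -0.18, Tagln2 0.31 and Dusp23 0.72, none past 2-fold. Their start sites lay at -1606, -1483 and -1350 kb from that of Ifi202b, all on the Aim2 side, where Aim2 lay at -632 kb. No neighbour closer to the cluster or on the Ifi205 side had enough UMIs. Where along the chromosome the difference ends thus cannot be told. Inside the cluster neighbours differed: Ifi203 (2.17) lies between Mnda (5.07) and Ifi202b (7.93). The annotated span of Mndal (1.08) covers both Ifi203 and Mnda, and it shares 37 exon bases with Ifi203.

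The genes outside the cluster whose levels over 11 stage and library sums were most like those of Ifi202b were Tbca (Pearson r 0.93), Zfand4 (0.93), Fastkd2 (0.92), Tnfrsf8 (0.89) and Prnp (0.89), among 9429 genes. Mnda reached 0.98. For Ifi203 they were Drosha (0.86), H2-Q7 (0.86), Usp18 (0.85), Ms4a6c (0.85) and B2m (0.84), and Mndal reached 0.93. Of these, Usp18 is on the interferon-inducible list, and B2m and H2-Q7 encode parts of class I antigen presentation. The 11 sums come from 2 libraries that differ in depth. Several of the genes named had few UMIs over all kept cells, which makes their coefficients less certain. Zfand4 had 6 in wild type and 48 in mutant, Fastkd2 26 and 41, Tnfrsf8 25 and 49, Prnp 21 and 34, and Ms4a6c 28 and 62. Among the wild type sums only that of cycling later cells held Ifi202b UMIs, and none held Mnda UMIs. The coefficients with Ifi202b thus partly hold the library difference that chose the group, and all coefficients only describe the sums.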

How the data were processed

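Thymocytes were loaded at 5000 cells per library on the 10x Chromium system with 3′ v2 reagents (labels' protocols). The authors deposited UMI counts per cell and gene. Their processing notes name mm10 and Cell Ranger, whose version is not given in the sources used here. Barcodes with at least 400 genes and at most 10% mitochondrial UMIs were kept, which left out 11. Scrublet (through Scanpy 1.11.5) called 8 doublets, or 0.26%, so doublets remain among the 3064 cells kept of 3083. One barcode sequence occurred in both libraries. UMIs were summed per library and stage and scaled to CPM. Poisson and ratio intervals were exact at 95% (SciPy 1.17.1), and a count of 0 was set to a floor of 3 UMIs. Cells were assigned, in order, to other lineage, cycling (8 UMIs of 22 cycling genes), early (2 UMIs of early markers, at most 1 coreceptor UMI), mature (2), post-selection (3) or DP (2). Thinning drew 1400 UMIs from each cell. The interval code was tested on simulated data. No test between libraries exists with 1 library a group. Named genes are all cluster genes and, per list, the highest and lowest ratios (6 and 4 of the interferon-inducible list, 3 and 3 of others, 5 by likeness), and 1 gene that this rule names is not reported here. The members and lists were chosen with earlier results of these data known. Alternatives changed the filters, scaling, thinning, gates and lists.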

Additional observations from a re-analysis of the deposited data

Results flagged for a closer look

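Pyhin1 had opposite directions in different stages. In mutant post-selection cells it was lower, with a log2 ratio of -1.24 (-2.26 to -0.28) from 27 wild type and 15 mutant UMIs, and in mutant cycling later cells it was higher, with 2.20 (1.14 to 3.33) from 12 and 24 UMIs. The difference between these stages was not tested, since each library is 1 sample. With cells thinned to 1400 UMIs the cycling later ratio was 0.39 (-2.30 to 2.75).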

How the results depend on the processing

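No paired analysis was possible because each group is 1 library. Over all cells, 49 of 54 alternative values of the 6 members moved by less than their counting interval. With every cell thinned to 1400 UMIs, Ifi203 had a log2 ratio of 1.71, Pyhin1 0.67 and Ifi204 at least 1.51 with wild type at the floor, and as a mean over cells Ifi203 had 1.70 and Pyhin1 0.80, where deep cells weigh less. Ifi202b ranged from 7.14 to 8.46. By stage 107 of 114 values moved by less than the interval. Thinning, which leaves fewer UMIs, gave bounds of 2.75 for Ifi202b in early cells, 1.74 in resting DP cells, and -0.21 (no information) and 2.13 for Mnda in early and cycling later cells, and values of 0.39 for Pyhin1 in cycling later and 2.15 for Aim2 in mature cells. Gates set on thinned cells gave 1.01 for Ifi203 in mature cells. The interferon-inducible median stayed between 0.61 and 0.89. Cells split by interferon-inducible UMIs gave -0.49 for mutant Ifi202b with a second random thinning and -0.38 with 5 genes left out. An early gate on Kit, Myl10, Igll1 and Ptcra was chosen after seeing the data. Stage alternatives with under 30 cells in a library were not run. Size factors shifted all log2 ratios by -0.10. Depth limits Ifi204, Ifi205 and AI607873, whose wild type counts were 2 or fewer.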
